A study of Homo sapiens with 15 samples.

Results

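The genes MIR28, MIR151A, MIR151B and MIR708 encode the precursors of miR-28, miR-151a, miR-151b and miR-708, which are grouped by a related run of bases near the start of their mature strands. They were taken from the count table by name, as 4 of its 50037 genes and of its 2139 miRNA genes. All 4 had reads in each of the 15 small RNA libraries and passed the filter on low counts that left 4099 genes, 291 of them miRNA genes.

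The labels describe wild-type (WT) HEK-293 cells, a human line from embryonic kidney, incubated for 18 h, whereas the series title speaks of macrophages. In the GKT136901 group (5 libraries), cells received 20 µM GKT136901, which the labels call a NOX1/4 inhibitor, along with the lipid products that lipoprotein lipase (LPL) had made from very low-density lipoprotein (VLDL). In the LPL:VLDL group (5 libraries) they received those products alone, and in the VLDL group (5 libraries, titled pcDNA:VLDL) they received VLDL. VLDL or its products were therefore present in all 3 groups, and a group with neither was not analysed here. NOX1 and NOX4 are NADPH oxidases, enzymes that make reactive oxygen species. A batch label gives replicates 1 to 5 of each group to experiments 2 to 6, so that each experiment has 1 library of every group.

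A miRNA is cut from a hairpin as a pair of strands, the 5p and 3p arms, and pairs with target mRNAs mainly through its seed, bases 2 to 8. miR-28 is known from breast epithelial cells as a repressor of NFE2L2, the gene of NRF2, the transcription factor that KEAP1 holds in check and that switches on antioxidant enzymes under oxidative stress. miR-151a lies in the gene of focal adhesion kinase and has been tied to cell migration in liver cancer, and miR-708 has been linked to the stress response of the endoplasmic reticulum.

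The mature strands of miR-28 and miR-708 that the RefSeq table (GRCh38.p14) holds are shown. Capitals mark the seed.
hsa-miR-28-3p: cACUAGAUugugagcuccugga
hsa-miR-708-3p: cAACUAGAcugugagcuucuag
hsa-miR-708-5p: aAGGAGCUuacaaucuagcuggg
The 3p arms of miR-28 and miR-708 share the 6 bases ACUAGA, which start at base 2 of miR-28-3p and at base 3 of miR-708-3p, so their seeds are offset by 1 base and are not equal. A run of 8 bases, ugugagcu, also stands in both, from base 9 of miR-28-3p and base 10 of miR-708-3p. Among the 2370 mature entries compared, the seed AGGAGCU of miR-708-5p is also that of miR-3139. The seeds of the 3p arms are each found in 1 of these entries. The comparison did not cover every mature strand, so seeds shared with the strands left out were not looked for. The annotated arm of MIR151B holds AGGAGCU from base 4 rather than base 2. The name of a seed family therefore holds for miR-151b only with a shift of 2 bases. miR-28-5p and both arms of miR-151a were not among the entries compared and are named only. Whether AGGAGCU is the seed of any of these strands, at bases 2 to 8, was therefore not examined. The 3p match need not be what groups these genes.

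On GRCh38.p14, MIR28 spans chr3:188688781-188688866 on the plus strand (86 bases) within LPP, a focal adhesion protein gene of the same strand. MIR151A spans chr8:140732564-140732653 on the minus strand (90 bases) within PTK2, which encodes focal adhesion kinase, also on that strand. MIR708 spans chr11:79402022-79402109 on the minus strand (88 bases) within TENM4, a teneurin gene of the same strand. MIR151B spans chr14:100109419-100109514 on the minus strand (96 bases), within EVL, an actin regulator gene of the opposite strand, and 140 bases from MIR342. None of the 4 has a base in an exon of another gene, so reads on them were not lost to overlapping exons.

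Library totals ran from 5.08 to 9.76 M counts and averaged 8.16 ± 1.78 M with GKT136901, 9.22 ± 0.380 M with LPL:VLDL and 9.18 ± 0.602 M in the VLDL group (SD, n = 5 each), the lowest being GKT136901 replicate 2. miRNA genes held 39.9 ± 6.76% of counts with GKT136901, 38.8 ± 7.04% with LPL:VLDL and 37.8 ± 5.22% with VLDL. Of 9 genes chosen as HEK-293 markers, 5 had a count, 17 counts in all, and LIN28B, NEFM, INA and BEX1 were at 0. Of 18 myeloid markers 17 had a count, 6788 in all, and AIF1 was at 0. CSF1R (1771 counts), ITGB2 (1382), SPP1 (1316) and LAPTM5 (935) held most of these. Others were near the floor over the 15 libraries together, with 3 counts for CD163, 4 for MRC1, 30 for LYZ, 31 for CD14, 56 for CD68 and 61 for PTPRC. The HEK-293 label is thus not borne out by these markers, and no other name is given to the cells. Summed myeloid levels ranged from 28.9 to 81.1 CPM with GKT136901, from 28.1 to 127 CPM with LPL:VLDL and from 41.8 to 108 CPM in the VLDL group, overlapping between groups. All 10 myeloid markers tested stood below 0 in GKT136901 minus VLDL (median log2 difference -0.41) and 9 of 10 in GKT136901 minus LPL:VLDL (-0.41); edgeR called 0 of them, and their part in the results was not tested.

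MIR151A and MIR28 were among the abundant miRNA genes of these cells, and MIR708 and MIR151B had few counts. Levels are given in CPM, read counts relative to the library total, with that total scaled by TMM, a factor that adjusts for differences in composition between libraries. MIR151A averaged 7479 ± 1790 CPM (SD, n = 15), MIR28 averaged 2427 ± 346 CPM, MIR708 averaged 7.74 ± 6.25 CPM and MIR151B averaged 3.61 ± 1.70 CPM. Per kilobase of precursor, MIR151A ranked 9 of the 291 miRNA genes tested (83098 ± 19890 RPKM), MIR28 ranked 15 (28223 ± 4021 RPKM), MIR708 ranked 148 (88.0 ± 71.0 RPKM) and MIR151B ranked 194 (37.6 ± 17.7 RPKM).

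The order MIR151A above MIR28 above the other two held in every library, since the RPKM of MIR151A never fell under 54457, that of MIR28 lay between 20953 and 34065, and that of MIR708 never passed 198.3. MIR708 (6.10 to 198.3 RPKM) and MIR151B (1.44 to 69.0 RPKM) overlapped. Of the 4 genes' reads, 75.3% fell on MIR151A, 24.6% on MIR28, 0.0768% on MIR708 and 0.0372% on MIR151B. The mature strand of miR-151b is contained in that of miR-151a-5p, and reads that map to several places were not counted. Both counts therefore leave out reads that fit either gene, and their split is uncertain. The low count and rank of MIR151B thus do not measure how abundant miR-151b was. The counts also do not separate the 5p arm from the 3p arm.

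The level of MIR28, the gene of these 4 with a reported action on NFE2L2, differed between the treatments by less than the spread within them. In experiments 2 to 6 it stood at 2634, 2566, 2930, 2437 and 2047 CPM with GKT136901. The same experiments gave 2341, 2215, 2916, 2657 and 2426 CPM with LPL:VLDL. They gave 1802, 2656, 2718, 2156 and 1908 CPM with VLDL. The lowest values lay in the VLDL group, in experiments 2 and 6, but all 3 groups overlapped, and experiment 4 was the highest in each.

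MIR28 averaged 2523 ± 322 CPM with GKT136901, 2511 ± 278 CPM with LPL:VLDL and 2248 ± 421 CPM in the VLDL group (SD, n = 5 each). In edgeR's quasi-likelihood F test with Benjamini-Hochberg adjustment over all 4099 genes, LPL:VLDL minus VLDL was 0.16 ± 0.18 on the log2 scale (SE; 95% interval -0.20 to 0.52; adjusted p = 0.999). GKT136901 minus LPL:VLDL was 0.01 ± 0.18 (interval -0.36 to 0.37). GKT136901 minus VLDL was 0.17 ± 0.18 (interval -0.20 to 0.53). With the experiment as a block, LPL:VLDL minus VLDL was 0.17 ± 0.10 (interval -0.04 to 0.39, edgeR, unadjusted p = 0.111, adjusted 0.988). GKT136901 minus VLDL was then 0.17 ± 0.10 (interval -0.04 to 0.39, edgeR, unadjusted p = 0.108, adjusted 0.997). MIR28 was higher with LPL:VLDL than with VLDL in 4 of 5 experiments, and higher with GKT136901 than with VLDL in 4 of 5. These differences sit beside a median shift of 0.12 and 0.13 over the 291 miRNA genes in the same comparisons, and on miRNA genes alone the MIR28 differences were 0.041 and 0.043.

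None of the 4 genes was called (adjusted p under 0.05) in any of the 3 comparisons, where edgeR called 0 of 4099 genes in each, a background of 0%. Unadjusted p lay under 0.05 for 77 genes in LPL:VLDL minus VLDL, for 87 in GKT136901 minus LPL:VLDL and for 91 in GKT136901 minus VLDL, and for none of the 4 genes, whose adjusted p was 0.999, 1.00 and 0.999 in the same order. The median log2 difference of the 4 was 0.04, 0.04 and 0.05 in these comparisons, against 0.01, -0.02 and -0.0042 over all genes tested. DESeq2 called 0 genes too, with 126, 128 and 128 under 0.05, and limma voom called 0, with 129, 119 and 158. With the experiment as a replicate block, edgeR called 1 gene in LPL:VLDL minus VLDL (0.0244%, MIR132, named here after its value was seen) and 0 in the others (0%), again none of the 4. With 5 libraries a group, these p-values measure the spread between libraries, which may be technical, since the labels do not say that the cells of the experiments were grown separately.

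**Figure D1:**
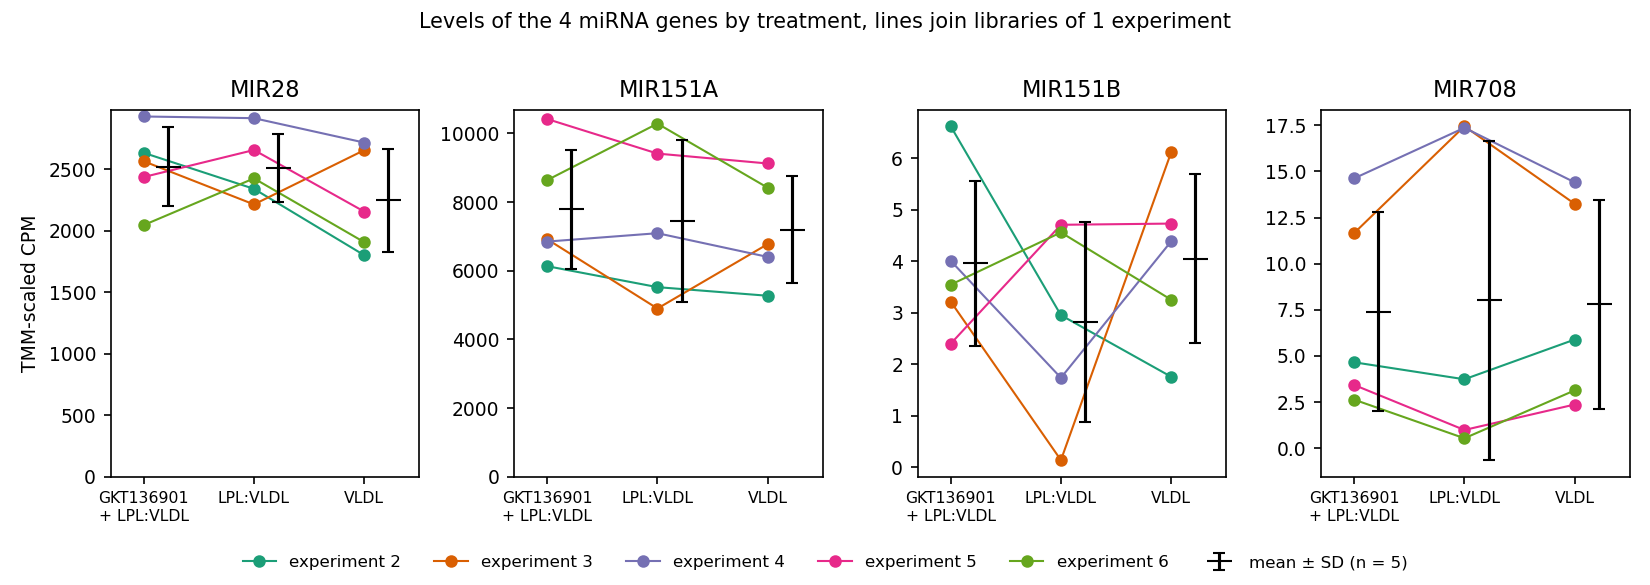
TMM-scaled CPM of MIR28, MIR151A, MIR151B and MIR708 in every library, by treatment; points joined by a line come from 1 experiment, and black bars are the mean ± SD of 5 libraries. The groups overlap in every panel, and for MIR708 the lines keep apart, at 11.7 to 17.5 CPM in experiments 3 and 4 and at 0.537 to 5.89 CPM in the others.

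MIR151A, the most abundant of the 4, showed the same overlap between treatments. In experiments 2 to 6 it stood at 6134, 6919, 6851, 10420 and 8641 CPM with GKT136901. It stood at 5524, 4901, 7095, 9413 and 10286 CPM with LPL:VLDL. With VLDL it stood at 5273, 6777, 6404, 9125 and 8420 CPM. Within each group the libraries of experiments 5 and 6 were the highest.

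MIR151A averaged 7793 ± 1734 CPM with GKT136901, 7444 ± 2358 CPM with LPL:VLDL and 7200 ± 1559 CPM in the VLDL group (SD, n = 5 each). LPL:VLDL minus VLDL was 0.05 ± 0.21 on the log2 scale (SE; 95% interval -0.39 to 0.48), GKT136901 minus LPL:VLDL was 0.07 ± 0.21 (-0.37 to 0.50) and GKT136901 minus VLDL was 0.11 ± 0.21 (-0.32 to 0.55). With the experiment as a block the same differences were 0.02 ± 0.10 (-0.19 to 0.24), 0.09 ± 0.10 (-0.12 to 0.30) and 0.11 ± 0.10 (-0.10 to 0.33). The level was higher with GKT136901 than with VLDL in 5 of 5 experiments. The sign of that difference turned when only miRNA genes were fitted and scaled, to -0.01, so it moves with the scaling.

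MIR708 had few reads, between 4 and 150 counts per library. In experiments 2 to 6 it stood at 4.66, 11.7, 14.6, 3.43 and 2.63 CPM with GKT136901. It stood at 3.73, 17.5, 17.4, 0.985 and 0.537 CPM with LPL:VLDL. With VLDL it stood at 5.89, 13.2, 14.4, 2.37 and 3.13 CPM. In every group experiments 3 and 4 were the high ones.

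MIR708 averaged 7.40 ± 5.40 CPM with GKT136901, 8.02 ± 8.66 CPM with LPL:VLDL and 7.81 ± 5.67 CPM in the VLDL group (SD, n = 5 each). LPL:VLDL minus VLDL was 0.03 ± 0.65 on the log2 scale (95% interval -1.30 to 1.35), GKT136901 minus LPL:VLDL was -0.12 ± 0.65 (-1.45 to 1.21) and GKT136901 minus VLDL was -0.09 ± 0.65 (-1.42 to 1.24). With the experiment as a block, the SE narrowed to 0.31 and LPL:VLDL minus VLDL became -0.41 (-1.04 to 0.23), while GKT136901 minus LPL:VLDL became 0.37 (-0.28 to 1.01), so both signs turned. Both intervals still held 0. The LPL:VLDL library was the highest of its experiment in experiments 3 and 4 and the lowest in experiments 2, 5 and 6.

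MIR151B had between 1 and 64 counts per library. In experiments 2 to 6 it stood at 6.62, 3.22, 4.01, 2.40 and 3.55 CPM with GKT136901. It stood at 2.95, 0.139, 1.74, 4.71 and 4.56 CPM with LPL:VLDL. With VLDL it stood at 1.76, 6.11, 4.39, 4.73 and 3.25 CPM. The groups overlapped, and the low value of experiment 3 with LPL:VLDL rests on 1 count.

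MIR151B averaged 3.96 ± 1.60 CPM with GKT136901, 2.82 ± 1.93 CPM with LPL:VLDL and 4.05 ± 1.64 CPM in the VLDL group (SD, n = 5 each). LPL:VLDL minus VLDL was -0.51 ± 0.50 on the log2 scale (95% interval -1.53 to 0.51), GKT136901 minus LPL:VLDL was 0.49 ± 0.50 (-0.54 to 1.52) and GKT136901 minus VLDL was -0.02 ± 0.50 (-1.04 to 0.99). Its count was 0.0490 ± 0.0261% of the MIR151A count in the same library (SD, n = 15).

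**Figure D2:**
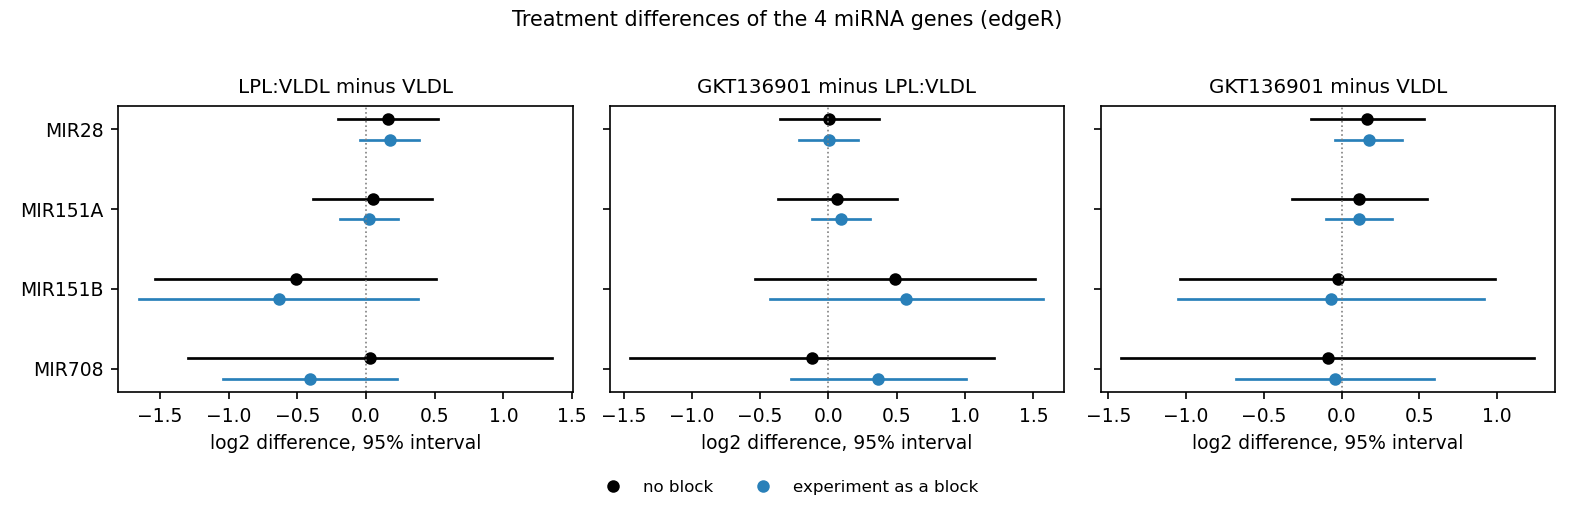
Log2 differences of the 4 genes in the 3 treatment comparisons, as points with 95% intervals, from edgeR without a block (black) and with the experiment as a block (blue). Each interval includes 0; those of MIR28 and MIR151A lie within -0.39 and 0.55, and those of MIR708 without the block reach from -1.45 to 1.35.

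As a share of all miRNA counts, which needs no scaling between RNA classes, the 4 genes held 2.65 ± 0.403% with GKT136901, 2.43 ± 0.514% with LPL:VLDL and 2.61 ± 0.276% in the VLDL group (SD, n = 5 each). Two-sided exact permutation tests of 5 against 5 libraries gave p = 0.452 for LPL:VLDL against VLDL, p = 0.405 for GKT136901 against LPL:VLDL and p = 0.794 for GKT136901 against VLDL (0.679, 0.679 and 0.794 adjusted over the 3; the smallest p that these tests can give is 0.00794). For the share, exact sign-flip tests that keep the pairing by experiment gave p = 0.375, 0.125 and 0.625 in the same order. Their adjusted p was 0.5625, 0.375 and 0.625, and the smallest p possible in a sign-flip test was 0.0625. The share was higher with GKT136901 than with LPL:VLDL in 4 of 5 experiments. In experiment 3 the LPL:VLDL library held the lowest share of all, 1.77%.

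The ratio of MIR151A to MIR28 within a library likewise overlapped between the treatments. It was 3.17 ± 0.994 with GKT136901, 2.96 ± 0.891 with LPL:VLDL and 3.30 ± 0.961 with VLDL (SD, n = 5 each). On the log2 scale the mean was 1.61 with GKT136901, 1.52 with LPL:VLDL and 1.67 in the VLDL group, and exact permutation tests gave p = 0.571 for LPL:VLDL against VLDL, p = 0.659 for GKT136901 against LPL:VLDL and p = 0.730 for GKT136901 against VLDL (each 0.730 when adjusted over the 3). Those tests ignore the pairing by experiment. Exact sign-flip tests, which keep it, gave p = 0.125, 0.5 and 0.6875 in the same order (0.375, 0.6875 and 0.6875 adjusted, smallest possible p 0.0625). Within experiments the ratio was lower with LPL:VLDL than with VLDL in 4 of 5.

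Between the experiments, in contrast, 2 of the 4 genes changed. MIR708 varied most. Its mean over the 3 libraries of an experiment was 4.76 ± 1.08 CPM in experiment 2, 14.1 ± 2.99 CPM in experiment 3, 15.5 ± 1.65 CPM in experiment 4, 2.26 ± 1.22 CPM in experiment 5 and 2.10 ± 1.38 CPM in experiment 6 (SD, n = 3 each). All 6 libraries of experiments 3 and 4 lay above the other 9. The fitted difference between the highest and the lowest experiment was 2.94 on the log2 scale, 7.67-fold (edgeR, F test of the experiment terms, Benjamini-Hochberg adjusted p = 7.25e-07).

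MIR151A averaged 5644 ± 443 CPM in experiment 2, 6199 ± 1126 CPM in experiment 3, 6783 ± 350 CPM in experiment 4, 9653 ± 680 CPM in experiment 5 and 9116 ± 1020 CPM in experiment 6 (SD, n = 3 each). The 6 libraries of experiments 5 and 6, at 8420 to 10420 CPM, lay above the other 9, at 4901 to 7095 CPM. The fitted span was 0.77 on the log2 scale, 1.71-fold (edgeR, adjusted p = 0.00011). The share of miRNA in all counts moved with these levels, from 31.1 ± 1.38% in experiment 2 to 45.8 ± 3.59% in experiment 5 and 43.4 ± 1.15% in experiment 6, and its part in them was not tested.

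Relative to miRNA counts the order of experiments for MIR151A was another one. As CPM of the miRNA counts alone, MIR151A was highest in experiment 2 (22906 ± 378) and lowest in experiment 3 (16237 ± 3534), with 20463 ± 1176 in experiment 5 (SD, n = 3 each). With the fit and TMM factors on miRNA genes alone, experiments 5 and 6 were the highest again and the span was 0.54 on the log2 scale (edgeR, adjusted p = 0.00019).

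MIR28 spanned 0.43 on the log2 scale, 1.34-fold, between experiments 4 (2854 ± 119 CPM) and 6 (2127 ± 268 CPM), which did not pass (edgeR, adjusted p = 0.191). As CPM of the miRNA counts alone, MIR28 was 9125 ± 1150 in experiment 2, 6477 ± 866 in experiment 3, 7199 ± 303 in experiment 4, 5112 ± 269 in experiment 5 and 4408 ± 81.1 in experiment 6 (SD, n = 3 each), a 2.07-fold span, against 1.41-fold for MIR151A on that scale. With the fit on miRNA genes alone its span was 0.58 and passed (adjusted p = 0.00014), and experiment 2 was then the highest. Without experiment 3, MIR28 also passed (span 0.43, adjusted p = 0.0307). MIR151B spanned 0.50 with experiment means of 3.16 to 3.95 CPM (edgeR, adjusted p = 0.975).

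The background for these 2 calls among 4 genes was 455 of 4099 genes called across experiments (11.1%), and 112 of the 291 miRNA genes (38.5%). By p-value MIR708 ranked 39 of all genes and 20 of the miRNA genes, and MIR151A ranked 104 and 45. Differences between experiments were thus common among miRNA genes and are not particular to these 4. Summed myeloid levels were highest in experiment 2, at 105 ± 22.9 CPM, against experiment means of 35.3 to 41.5 CPM in the others. Their part in the differences was not tested.

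**Figure D3:**
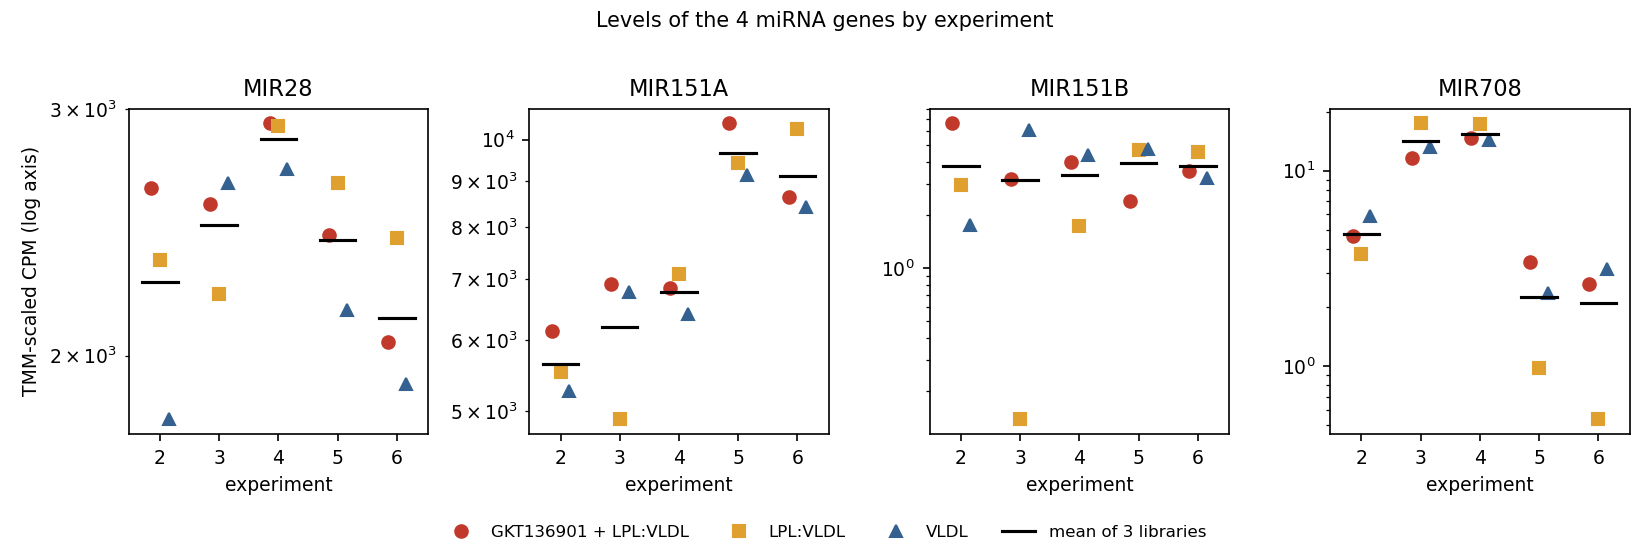
TMM-scaled CPM (log axes) of the 4 genes by experiment, with marks for the treatments and a black line at the mean of the 3 libraries. MIR708 is high in experiments 3 and 4 (means 14.1 and 15.5 CPM), MIR151A in experiments 5 and 6 (9653 and 9116 CPM), whatever the treatment.

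Since MIR151A and MIR28 went different ways over the experiments, their ratio within a library fell into separate ranges. MIR151A over MIR28 was 2.54 ± 0.336 in experiment 2, 2.49 ± 0.248 in experiment 3 and 2.38 ± 0.0502 in experiment 4. It was 4.02 ± 0.411 in experiment 5 and 4.29 ± 0.106 in experiment 6 (SD, n = 3 each). Every library of experiments 5 and 6 (3.54 to 4.41) lay above every library of experiments 2 to 4 (2.21 to 2.93). This ratio does not depend on scaling, and its experiment means spanned 0.85 on the log2 scale, 1.81-fold. A permutation test of the experiment labels within groups, chosen after the values were seen, gave p = 0.00677 (100000 resamples).

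**Figure D4:**
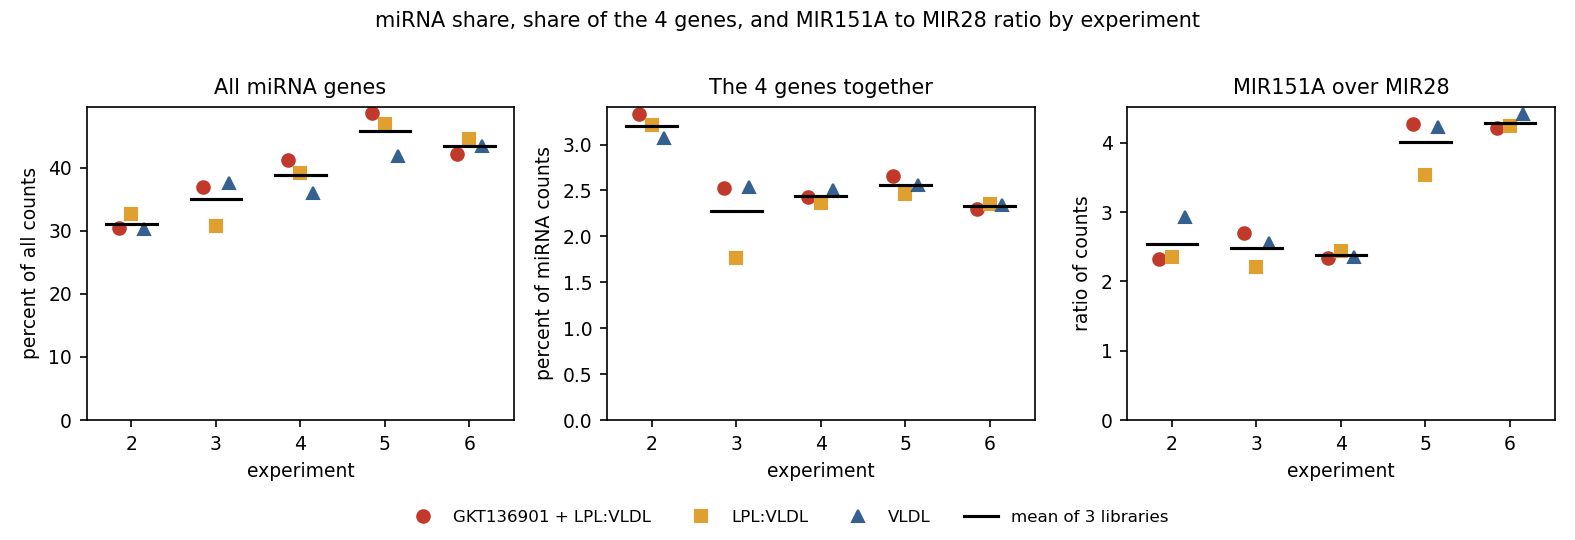
Share of miRNA in all counts, share of the 4 genes in miRNA counts, and ratio of MIR151A to MIR28 counts in each library, by experiment, with the mean of 3 libraries as a line. The ratio is 2.21 to 2.93 in experiments 2 to 4 and 3.54 to 4.41 in experiments 5 and 6, in each treatment alike, while the share of the 4 genes is highest in experiment 2 (mean 3.21%).

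Across the 15 libraries, correlations between the 4 genes are given as descriptions, since libraries of 1 experiment go together and share their scaling. Spearman's correlation of log2 CPM was 0.05 for MIR28 with MIR151A, 0.26 for MIR28 with MIR151B and 0.25 for MIR151A with MIR151B. For MIR708 it was 0.42 with MIR28, -0.68 with MIR151A and -0.425 with MIR151B. After the mean of each experiment was taken away, MIR28, MIR151A and MIR151B went together, with a Pearson's r of 0.72 for MIR28 with MIR151A, 0.69 for MIR151A with MIR151B and 0.55 for MIR28 with MIR151B. MIR708 went the other way, at -0.63 with MIR28, -0.40 with MIR151A and -0.36 with MIR151B. The LPL:VLDL library of experiment 3 had the lowest MIR151A of all (4901 CPM), 1 count of MIR151B and the highest MIR708 (17.5 CPM). How far these correlations rest on that library was not tested.

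Among the 131 miRNA genes of at least 10 CPM, those whose levels over the 15 libraries were most like MIR151A were MIR148A (Spearman's correlation 0.95), MIR342 (0.94) and MIR744 (0.92). Those most like MIR28 were MIR29A (0.83), MIR362 (0.81) and MIR339 (0.79). These values share the experiments and the scaling of the libraries. MIR708 and MIR151B lay under 10 CPM and were not compared.

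The host genes gave little to set beside their miRNAs, since mRNA enters small RNA libraries only as fragments. LPP, the host of MIR28, averaged 2.41 ± 0.947 CPM with GKT136901, 2.31 ± 1.12 CPM with LPL:VLDL and 3.35 ± 2.57 CPM in the VLDL group (SD, n = 5 each). PTK2 had 89 counts in all libraries together, EVL 69 and TENM4 4, too few to be tested. MIR342, next to MIR151B on the other strand, averaged 898 ± 138 CPM with GKT136901, 894 ± 232 CPM with LPL:VLDL and 878 ± 197 CPM in the VLDL group. These levels lay far above the counted level of MIR151B, which leaves out reads that also fit MIR151A. MIR342 changed across experiments (edgeR, adjusted p = 0.00264), highest in experiment 5 as MIR151A was.

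NFE2L2, the reported target of miR-28, was covered by 223 counts in all. It averaged 1.68 ± 1.32 CPM with GKT136901, 1.56 ± 1.06 CPM with LPL:VLDL and 1.73 ± 0.463 CPM in the VLDL group (SD, n = 5 each). LPL:VLDL minus VLDL was -0.13 ± 0.61 on the log2 scale and GKT136901 minus LPL:VLDL was 0.09 ± 0.62 (SE; edgeR, adjusted p = 0.999 and 1.00). KEAP1, which marks NRF2 for degradation, averaged 0.877 ± 0.699 CPM with GKT136901, 1.40 ± 1.05 CPM with LPL:VLDL and 1.24 ± 1.27 CPM in the VLDL group. A difference of either mRNA between the groups was not detectable at this depth.

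Of 9 genes reported as targets of the 4 miRNAs, 3 were tested, among them NFE2L2 and ARHGDIA, which is reported for miR-151, and edgeR called 0 in any comparison. Of 8 genes of NRF2 and its partners, 7 were tested and 0 called. Their median log2 difference was 0.17 in LPL:VLDL minus VLDL and -0.12 in GKT136901 minus LPL:VLDL, against 0.01 and -0.02 over all genes tested. The lowest unadjusted p among them in LPL:VLDL minus VLDL belonged to BACH1, a repressor of NRF2 target genes, which averaged 1.94 ± 1.00 CPM with LPL:VLDL and 1.03 ± 0.670 CPM in the VLDL group (edgeR, unadjusted p = 0.168, adjusted 0.999).

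Of 24 NRF2 target genes, 10 were tested and 0 called, and an unadjusted p lay under 0.05 for GCLC both in GKT136901 minus LPL:VLDL and in GKT136901 minus VLDL. GCLC, the catalytic subunit of the enzyme that starts glutathione synthesis, averaged 1.83 ± 0.604 CPM with GKT136901, 3.49 ± 0.826 CPM with LPL:VLDL and 3.53 ± 1.52 CPM in the VLDL group (GKT136901 minus LPL:VLDL -0.94 ± 0.42, edgeR, unadjusted p = 0.0349, adjusted 1.00). SLC7A11, the cystine importer, averaged 4.76 ± 2.31 CPM with GKT136901, 4.66 ± 1.97 CPM with LPL:VLDL and 2.76 ± 1.21 CPM in the VLDL group (LPL:VLDL minus VLDL 0.75 ± 0.43, edgeR, unadjusted p = 0.0891).

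Of 13 other miRNA genes reported to act on NRF2, 5 had a count and 2 were tested. A lack of counts, as for MIR27A, MIR142, MIR144 and MIR34A, does not show that the miRNA was absent from the cells. The counting step discarded reads shared between genes, and whether these 13 overlap other genes was not checked. MIR93 averaged 446 ± 76.7 CPM with GKT136901, 362 ± 71.9 CPM with LPL:VLDL and 409 ± 95.4 CPM in the VLDL group (SD, n = 5 each). It was higher with GKT136901 than with LPL:VLDL in 5 of 5 experiments, by 0.30 ± 0.21 on the log2 scale without a block (edgeR, unadjusted p = 0.163, adjusted 1.00). With the experiment as a block that difference was 0.30 ± 0.11 (95% interval 0.07 to 0.53). Its unadjusted p in edgeR was then 0.0116 and its adjusted p 0.9999, so it was not called. MIR450A2 averaged 6.28 ± 3.19 CPM with GKT136901, 6.64 ± 2.49 CPM with LPL:VLDL and 4.78 ± 2.66 CPM in the VLDL group and was not called.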

How the data were processed

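Small RNA was sequenced from 15 libraries, 3 groups of 5, grouped by their sample labels. The authors deposited raw counts per gene with no normalization. The submitters' processing notes name hg38 as the build, with fastp 0.24.0, STAR 2.7.11b and featureCounts. Per the file headers, featureCounts 2.0.6 counted exons by gene with its default settings, which ignore strand and leave out reads that map to several places or lie over exons of several genes. Counts are per precursor. 0 count columns were left without a sample.

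Genes were kept by filterByExpr (minimum count 10, minimum total 15), which left 99.7% of the counts. They were tested two-sided with edgeR 4.0.16 in R 4.3.3 (quasi-likelihood F test, TMM, 1 model of all libraries, 12 residual degrees of freedom), with Benjamini-Hochberg adjustment over all genes tested. Differences between experiments came from a model of group and experiment. The biological coefficient of variation was 0.583, and 0.513 with the block. DESeq2 1.42.0 and limma 3.58.1 were alternatives. The test code was run on simulated counts for LPL:VLDL minus VLDL. It called 9.68% of the tested genes changed 2-fold and 58.4% of those changed 4-fold. Over 10 CPM these were 23.5% and 87.5%. Of 3364 unchanged genes 0 were called. Most 2-fold changes would therefore be missed. RNA classes came from RefSeq (99.2% of names matched). RPKM is CPM per kilobase of precursor.

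Libraries with the same replicate number are paired by the experiment that their batch label names. Across genes, their deviations from the group mean had a Pearson r of 0.066 to 0.378 in the 15 such pairs, with a median of 0.115. In the 60 others the median was -0.070 and the highest 0.148, so the sets overlapped. No library repeats another of its group, since chi-square tests of their counts gave 8.59 to 167 per degree of freedom. The 4 genes and all gene lists were chosen with earlier results of these data known. Named genes are the 4 genes, their hosts and MIR342, NFE2L2, KEAP1, some cell markers, listed genes with the lowest p, and the 3 miRNA genes most like each abundant member. Some listed genes are not reported here.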

Additional observations from a re-analysis of the deposited data

How the results depend on the processing

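Over 30 other settings per treatment comparison, none of the 4 genes was called, and the replicate block changed no call among them. Of 432 values of the 18 signed differences (4 genes, share and ratio in 3 comparisons), 353 kept their sign and 79 changed it, none of them called. In LPL:VLDL minus VLDL, MIR151A (0.05) became -0.076 with library-size scaling, -0.088 on miRNA genes only and -0.10 with these and the paired fit (replicate block). MIR708 (0.03) became -0.19 with library-size scaling, -0.75 with limma voom, -0.41 with the replicate block, -0.10 on miRNA genes only, -0.54 with both and -0.45 with the block in DESeq2. In GKT136901 minus LPL:VLDL, MIR28 (0.0067) became -0.010 with no filter, -0.0013 with a stricter one and -0.0064 with the block on miRNA genes. MIR708 (-0.12) became 0.066, 0.64, 0.37, 0.36 and 0.41 with library-size scaling, voom, the block, the block on miRNA genes and the block in DESeq2. In GKT136901 minus VLDL, MIR151A (0.11) became -0.012 on miRNA genes and -0.017 with the block there, and MIR151B (-0.024) became 0.0051 with library-size scaling and 0.047 with voom. The cause was not tested. Genes called in LPL:VLDL minus VLDL were 1 with the block, 3 with it on miRNA genes and 1 with it in DESeq2, which also called 2 in GKT136901 minus VLDL. Across experiments, on miRNA genes only, MIR28 spanned 0.58 and passed, and 103 genes were called, fewer genes being tested. The fits that combine the block with another choice were added after seeing the data.

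With a library or an experiment left out, LPL:VLDL minus VLDL ran from -0.13 to 0.15 for MIR151A and from -0.73 to 0.38 for MIR708, with 0 to 2 genes called. Others kept their sign there but moved over 1.5 times: MIR151B (-0.51) ran from -0.99 (block, without experiment 6) to -0.059 (block, without experiment 3), MIR28 (0.16) from 0.060 to 0.27, the share (-0.17 percentage points) from -0.37 (without LPL:VLDL replicate 1) to -0.0087 (without LPL:VLDL replicate 2) and the log2 ratio (-0.16) from -0.30 (without LPL:VLDL replicate 5) to -0.039 (without VLDL replicate 5). MIR28 there was 0.041 on miRNA genes and 0.048 with library-size scaling. GKT136901 minus LPL:VLDL ran from 0.19 to 0.96 for MIR151B, 0.047 to 0.41 percentage points for the share, -0.062 to 0.073 for MIR28, -0.056 to 0.21 for MIR151A, -0.55 to 0.71 for MIR708 and -0.027 to 0.24 for the log2 ratio of MIR151A to MIR28. GKT136901 minus VLDL ran from 0.055 to 0.24 for MIR28, -0.014 to 0.21 for MIR151A, -0.53 to 0.25 for MIR708, -0.55 to 0.25 for MIR151B, -0.18 to 0.055 for the ratio and -0.13 to 0.16 percentage points for the share of miRNA counts. Across experiments, MIR28 spanned 0.24 to 0.43 and MIR151B 0.27 to 0.63, and 145 (without experiment 2) to 460 genes were called; MIR708 (2.77 to 3.04) and MIR151A (0.66 to 0.81) passed in each. Depth limits MIR708 (4 to 150 counts), MIR151B (1 to 64) and the mRNAs.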
